A study of Homo sapiens with 7 samples.

Results

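GSE1 lies on the plus strand of chromosome 16 (chr16:85203131-85709810, hg19/GRCh37) and spans 507 kb. Described here are the H3K27ac HiChIP loops of its annotated start sites and of a 17.86 kb stretch inside the gene (chr16:85491053-85508912, called the region below) in 3 human cancer cell lines. The region was chosen by its measured T-47D values, because it had the most partners and read pairs in that list, so its T-47D level is given as a description with no test. A loop is a pair of different anchors on 1 chromosome with its count of joining read pairs, an anchor is a segment in which contacts were collected, and a partner is the anchor at the other end. Members were all loops with an anchor overlapping the region, or overlapping a 500 bp window centred on any of the 16 distinct GSE1 start sites in GENCODE. They numbered 217 of 354783 loops, namely 103 of 42027 in T-47D, 69 of 149226 in LNCaP and 45 of 163530 in Ishikawa. Of these, 64, 8 and 9 touched the region, 41, 63 and 39 touched a start site, and 2, 2 and 3 touched both.

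The T-47D cells (breast ductal carcinoma, 1 sample) and the LNCaP cells (prostate carcinoma, 2 samples) carried no stated treatment and were digested with MboI. The Ishikawa cells (endometrial adenocarcinoma, 4 samples) were digested with DpnII after 1 h of DMSO vehicle in 2 samples or of 10 nM 17beta-estradiol (E2) in 2 samples. The labels give serum-containing RPMI medium for all 3 lines, but the study states that cells were moved to hormone-depleted medium some days ahead of estrogen inductions, and whether this held for the Ishikawa HiChIP samples is not stated. All were precipitated with the same H3K27ac antibody. Each line is held as 1 pooled list, so replicate error could not be measured, no test between lines was possible, DMSO and E2 were not compared, and the 95% Wilson intervals cover counting error only.

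The list totals were 351260 loop read pairs in T-47D, 1805322 in LNCaP and 1040329 in Ishikawa, with medians of 5, 5 and 4 read pairs a loop. No listed loop had fewer than 3 read pairs, so an unlisted loop is one that was not reported and not one shown to be missing. In Ishikawa this minimum held for each row of 4 blocks before they were summed. Weak contacts spread over blocks can therefore be undercounted there. Median anchor widths were 2.61, 3.23 and 5.10 kb. Most marker promoters followed the labels: GATA3 loops held 1063, 0 and 7 read pairs in T-47D, LNCaP and Ishikawa, KLK3 loops 0, 2936 and 6, and PAX8 loops 0, 0 and 162. ESR1, also taken as a T-47D marker, did not, since its loops held 195, 8 and 299 and were highest in Ishikawa.

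GSE1 encodes a coiled-coil protein found with histone deacetylase and CoREST-type co-repressor complexes, which contain the demethylase KDM1A. H3K27ac marks active promoters and enhancers, and HiChIP enriches ligated chromatin contacts in which at least 1 end carries the mark. A distal segment with many marked contacts inside a gene is often called an enhancer hub, a term that describes contacts and not function.

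The region lay in intron 2 (chr16:85391250-85667519, 276 kb) of transcript GSE1-216, the isoform that begins at the first base of the gene. No other GSE1 transcript spanned the region. The main GSE1 start sites (85645015 to 85646958) lie to its 3-prime side, so for transcripts that begin there the region is upstream and not intronic. No exon of GSE1 and no other annotated gene overlapped it. Its edges are printed because anchors end at restriction sites; both enzymes cut at GATC, set in capitals, and each line is 30 bases of the plus strand.
5-prime edge, chr16:85491038-85491067: tggggcagggatacaGATCatcctgggttt
3-prime edge, chr16:85508897-85508926: gcgtcgctgaatctgtGATCagtgctgggg
The anchor began with the first base of 1 GATC and ended with the base before another. Every one of the 1692 T-47D, 2912 LNCaP and 5356 Ishikawa anchor edges on chromosome 16 had a GATC within 4 bases.

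The 300 bases of the region with the most matches to the 9 searched motifs (chr16:85496331-85496630, plus strand, GRCh37) are printed to show its sequence, with the matches in capitals.
Region window: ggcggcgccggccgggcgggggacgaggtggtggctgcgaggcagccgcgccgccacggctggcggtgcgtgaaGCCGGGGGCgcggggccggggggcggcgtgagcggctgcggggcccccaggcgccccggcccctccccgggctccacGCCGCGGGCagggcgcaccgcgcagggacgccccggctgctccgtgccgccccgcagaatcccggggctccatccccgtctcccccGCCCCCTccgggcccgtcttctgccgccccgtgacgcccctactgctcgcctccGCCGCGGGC
The window held 4 matches, 3 of AP-2 (GCCNNNGGC) and 1 of the CTCF core (AGGGGGC, here on the minus strand). As many or more were found in 0.60% of 262945 fixed windows of 300 bases on chromosome 16. The printed window was picked as the highest of all positions in the region, so this share does not show that the region is unusual. The printed window lay 3.50 kb to the 5-prime side of the centre of the region, within a stretch that the Ishikawa list also held as an anchor.

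Over the whole region the GC content was 58.0%, and 3.56% of 4411 chromosome 16 windows of the same length had as high a value. There were 461 CpG sites against a window median of 205, and 38 GATC sites against 48. The windows had a median GC content of 43.9% and were not matched to the region for it, which limits the motif comparisons below. On both strands there were 19 AP-2 matches (as many in 2.79% of windows, median 3) and 8 CTCF core matches (5.51%, median 2). FOXA (TGTTTAC) matched 3 times (41.2% of windows had as many), the GATA sequences AGATAA and TGATAA 9 and 3 times (68.8% and 92.8%), and AP-1 (TGANTCA) matched 1 time, where 99.4% of windows had as many or more (median 6). The full estrogen receptor element (GGTCANNNTGACC), the full androgen or glucocorticoid receptor element (GAACANNNTGTTC) and the GRHL site (AACCGGTT) had no match in the region, and 2.0%, 2.0% and 2.56% of windows held 1 or more. None of the 43 matches overlapped another, and a match is a string of letters, not evidence of binding.

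The strongest partner of the region in T-47D was the anchor over the main GSE1 start sites. Its RefSeq promoter stretch (chr16:85613072-85613371, plus strand, GRCh38.p14) is printed with CpG sites in capitals.
GSE1 promoter: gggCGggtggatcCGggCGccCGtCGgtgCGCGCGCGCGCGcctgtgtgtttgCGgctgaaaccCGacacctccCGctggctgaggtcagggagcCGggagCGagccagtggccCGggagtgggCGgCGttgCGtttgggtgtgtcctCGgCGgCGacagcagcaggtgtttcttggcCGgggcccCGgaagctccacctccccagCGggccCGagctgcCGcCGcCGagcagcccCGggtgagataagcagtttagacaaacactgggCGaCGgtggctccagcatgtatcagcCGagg
The stretch matched GRCh37 exactly once, at chr16:85646678-85646977, inside that anchor. It held 34 CpG sites in 300 bases, and 15.6% of 35116 RefSeq promoters of that length held as many (median 14).

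In T-47D the region was a single anchor with 64 partners and 3766 loop read pairs. The next anchors in the list of 19386 had 48 partners and 1510 read pairs, and the medians were 3 and 16. Pairs with both ends inside the region, which are not loops here, numbered 3741, against a median of 11 over the 15042 anchors with such pairs. These self pairs made up 1.21% of all self pairs of the list. The region was also the fourth widest T-47D anchor. Per kb of anchor its 211 loop read pairs ranked 14 and its 3.58 partners ranked 1775, whereas its 209 self pairs per kb still ranked 1. The rank by totals thus did not carry over to loop read pairs or partners per kb.

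**Figure D1:**
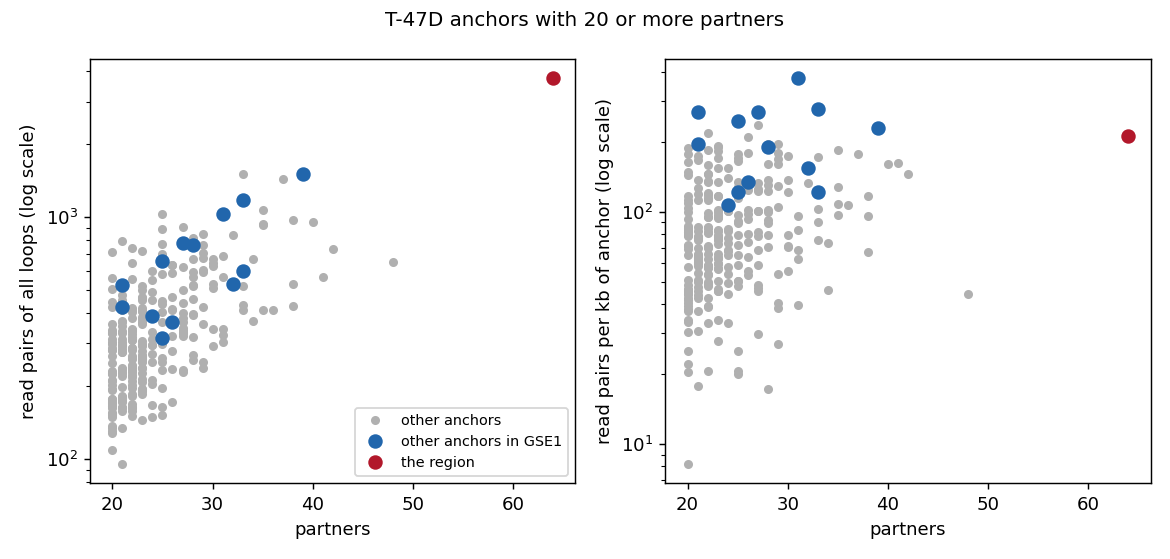
Each point is 1 of the 278 T-47D anchors with 20 or more partners; the x axes give partners and the log y axes give loop read pairs (left) and loop read pairs per kb of anchor (right). The region stands alone at 64 partners and 3766 read pairs, but on the right several of the 13 other GSE1 anchors lie above its 211 read pairs per kb.

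Other parts of the gene were also dense in T-47D loops. Of 28 T-47D anchors overlapping GSE1, 14 had 20 or more partners, and 4 of the 10 anchors of the whole list with the most read pairs were among them. The GSE1 promoter anchor (chr16:85642451-85649005) had 39 partners and 1506 read pairs, and an intronic anchor (chr16:85524270-85527002) held the highest density of the list, 377 read pairs per kb. The anchors nearest to the region but outside it, 7.09 kb to the 5-prime and 7.45 kb to the 3-prime side, had 21 and 11 partners with 522 and 185 read pairs. All loops touching GSE1 held 7780 read pairs in T-47D, of which 48.4% touched the region.

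The 6 strongest T-47D loops of the region held 59.9% of its read pairs. The GSE1 promoter anchor came first with 513 read pairs at 146 kb to the 3-prime side, 128 times the median of the 7427 T-47D loops in the same distance bin. Intronic anchors of GSE1 followed with 486 read pairs at 25.7 kb, 396 at 104 kb, 317 at -17.4 kb, 288 at 49.0 kb and 254 at 56.5 kb, where a negative distance is to the 5-prime side. The promoter had the most read pairs although those 5 partners lay closer to the region. Its anchor was also the widest, 6.555 kb against 2.664 to 4.248 kb, and these counts were not divided by partner width. The region was itself 17.86 kb wide, against a median T-47D anchor width of 2.61 kb, and was chosen by its T-47D values. The multiple of 128 was not adjusted for either. Places 7 to 10 had 137 (-81.3 kb), 123 (-112 kb), 104 (17.2 kb) and 92 (193 kb) read pairs, and all of them were in the gene too. The nearest partner on the 3-prime side, at 17.2 kb, was thus ninth, with an anchor only 1.597 kb wide.

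**Figure D2:**
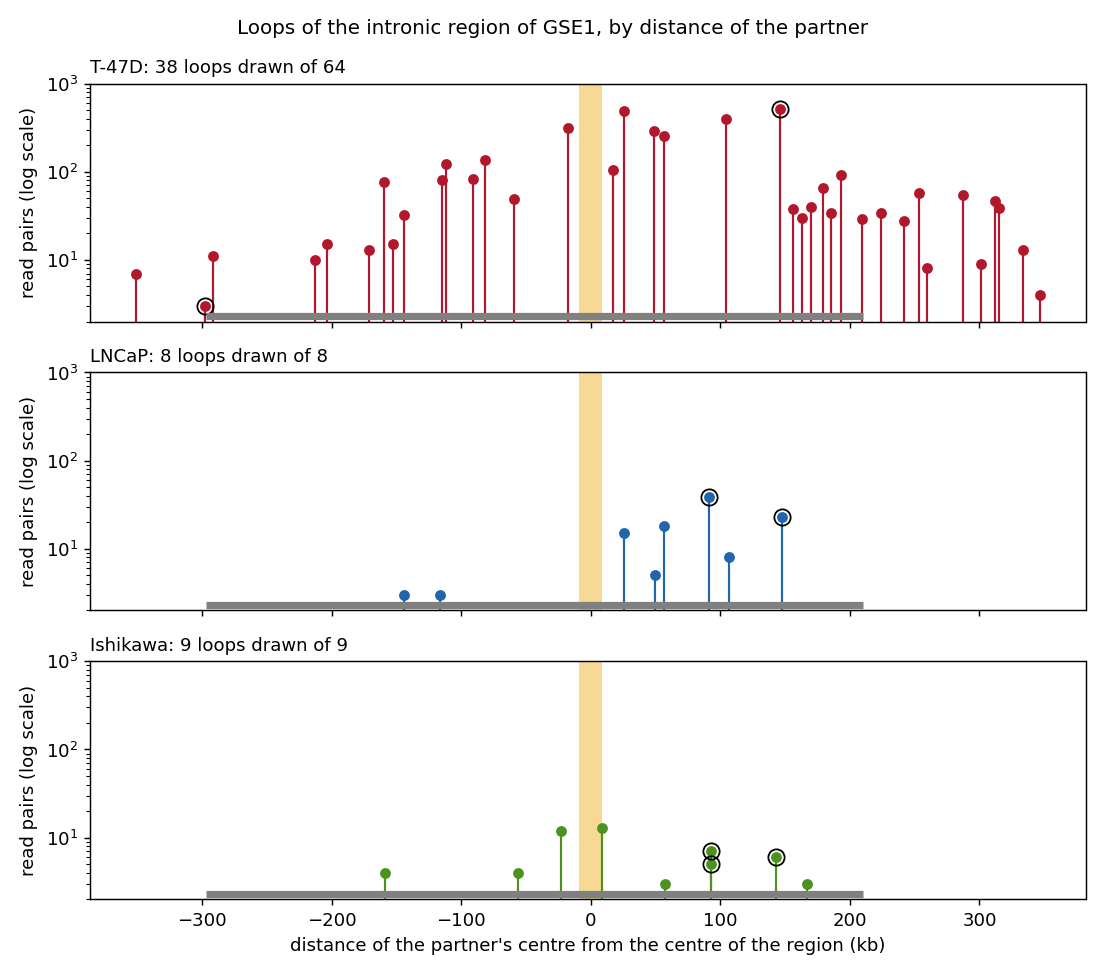
Read pairs (log axis) of each loop of the region against the distance of its partner from the centre of the region, for the 3 lists; the yellow band is the region, the grey bar is GSE1, and black rings mark partners over a GSE1 start site. T-47D values reach 513, whereas the highest LNCaP and Ishikawa values are 39 and 13.

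Contact numbers fell with distance, but partners reached far. In T-47D 37 partners lay within 350 kb and held 96.3% of the read pairs. Another 16 lay beyond 1 Mb with 68 read pairs in all, at most 9 a loop, and the farthest were at -4285 kb, at the promoter of PKD1L2, a polycystin-family gene, and at 3808 kb, each with 3 read pairs. Spearman's rho between read pairs and distance was -0.88 over the 64 loops, against -0.43 over all 42027 T-47D loops. Between read pairs and the self pairs of the partner rho was 0.29 over the 64 loops. Within 350 kb rho was -0.74 with distance and 0.82 with those self pairs (n = 37 loops that share 1 library and 1 anchor, so no test is given). The 5-prime and 3-prime sides had 32 partners each, but 1057 against 2709 read pairs. At the lower end, 11 of the 64 loops had the minimum of 3 read pairs, and 34 had 10 or more.

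By annotation, 28 of the 64 T-47D partners were intronic with 2742 read pairs, 19 overlapped a protein-coding start site with 664, 7 were exonic with 251 and 10 were intergenic with 109. The share over a start site, 29.7% (95% interval 19.9 to 41.8), lay below the 49.1% of all T-47D anchors that did so. Partners inside GSE1 numbered 27 and held 88.5% of the read pairs.

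Beyond GSE1 itself, with 516 read pairs over 2 start-site anchors, the region was joined to promoters of 16 protein-coding genes. EMC8, a subunit of the membrane protein insertion complex of the endoplasmic reticulum, had 52 read pairs over 2 anchors. GINS2, part of the replicative helicase, had 34, and COX4I1, a subunit of cytochrome c oxidase, had 13, all of them on an anchor it shared with EMC8. CRISPLD2, KIAA0513 and the deubiquitinase gene USP10 had 9 each, and DNAAF1, a dynein assembly factor, had 5. TAF1C (an RNA polymerase I factor), MEAK7 and KLHL36 had 4 each. ADAD2, CBFA2T3 (a transcriptional co-repressor), OSGIN1, MBTPS1 (a protease that activates SREBP proteins), PKD1L2 and PIEZO1 (a mechanosensitive channel) had 3 each, the lowest count a loop could have. Of these 16 genes none was joined to the region in the LNCaP or Ishikawa list, but the LNCaP list has no span over 2 Mb and so could not hold those of PKD1L2, PIEZO1 and CBFA2T3. Of the 23 protein-coding genes within 1 Mb of GSE1, 11 were joined to the region in T-47D and 0 in the other lists, although 13, 13 and 15 had any loop in T-47D, LNCaP and Ishikawa. These are 56.5%, 56.5% and 65.2% of the 23, against 49.2%, 58.1% and 57.3% of all genes. Of all T-47D loops, 38.9% were found in LNCaP and 9.93% in Ishikawa. The region was chosen by its T-47D partners, and most of the 11 genes had 9 or fewer read pairs with it. No conclusion about these genes is therefore drawn from 11 against 0.

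The region and the GSE1 promoter anchor shared most of the promoter's partners in T-47D. Of the 39 partners of the promoter anchor, 37 were also partners of the region, 1 was the region itself and 1 was not shared. The 26 region partners that the promoter anchor lacked had at most 9 read pairs each. In 36 of the 37 shared partners the region had more read pairs than the promoter, and this held for all 17 that lay nearer to the promoter. Summed over the 37, the counts were 3130 and 990, and the median ratio was 2.83 (range 0.800 to 11.6). Per kb of anchor the sums came to 175 and 151 read pairs, the median ratio was 1.04, and the region was higher at 20 of 37. Per kb the excess thus held at some shared partners and not at others. The region is 17.86 kb wide against 6.555 kb for the promoter anchor.

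**Figure D3:**
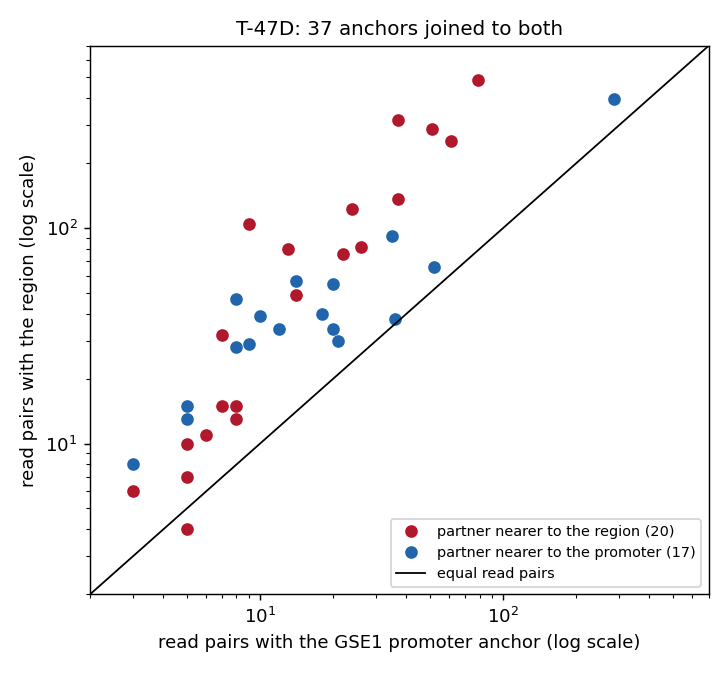
Each point is 1 of the 37 T-47D anchors joined to both the region and the GSE1 promoter anchor, with read pairs with the promoter on the x axis and with the region on the y axis (both log scales, not divided by anchor width). All but 1 point lie above the line of equal read pairs, including the 17 blue points of partners nearer to the promoter.

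Partners of the region were joined to each other in 382 of 2016 possible pairs (18.9%), while the partners of 277 other T-47D anchors with 20 or more partners were joined in a median of 44.3% of pairs (quartiles 31.6 to 58.1). Among its 37 partners within 350 kb the share was 47.4%, against a median of 59.0% (quartiles 46.0 to 72.5) over 106 other anchors with 20 or more partners in that range. Loops passing over the region, from a 5-prime to a 3-prime partner, made up 128 of 1024 possible pairs.

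In LNCaP the region held 1 anchor (chr16:85504032-85506371), which covered 13.1% of it and had 8 partners and 114 read pairs. Among 43549 LNCaP anchors 68.7% had fewer partners and 83.1% had fewer read pairs. Its loops had 39, 23, 18, 15, 8, 5, 3 and 3 read pairs, all with partners inside GSE1. The strongest, 6.50 times the median of its distance bin, went to an anchor over another GSE1 start site at 85589573 (chr16:85584459-85598773), and the next went to the anchor of the main start sites. No T-47D anchor with a loop overlapped that strongest LNCaP partner. The other 7 LNCaP partners each overlapped a T-47D partner.

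In Ishikawa the region held 2 anchors. The 5-prime one (chr16:85495005-85501296) had 3 partners and 22 read pairs, and the 3-prime one (chr16:85504871-85511910), which reaches past the region, had 7 partners and 48. Their 9 loops had 13, 12, 7, 6, 5, 4, 4, 3 and 3 read pairs, and the loop with 13 joined the 2 anchors to each other. Partners over GSE1 start sites took 3 loops with 7, 6 and 5 read pairs, of which the ones with 7 and 5 went to the anchor over the site at 85589573. Self pairs numbered 0 and 9. In all 9 loops the partner lay in GSE1, and none exceeded 3 times the bin median. A stretch of 1501 bp (chr16:85504871-85506371) lay in an anchor of all 3 lists.

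Loops of the region made up 1.07% of T-47D loop read pairs (95% interval 1.04 to 1.11), 0.00632% of LNCaP (0.00526 to 0.00759) and 0.00548% of Ishikawa (0.00423 to 0.00710). T-47D was 170 times LNCaP and 196 times Ishikawa by this share, and the LNCaP and Ishikawa intervals overlapped. Divided by anchor width and scaled to 1000000 read pairs a list, the region had 600 read pairs per kb in T-47D, 27 in LNCaP and 4.11 in Ishikawa, so that T-47D was 22.2 and 146 times higher. A difference in the same direction was seen around it. Other loops within the 1 Mb that holds GSE1 took 1.23%, 0.196% and 0.0820% of the read pairs, which is 6.27 and 14.96 times higher in T-47D. Loops of GSE1 start sites that did not touch the region took 0.284%, 0.139% and 0.0210%, or 2.04 and 13.5 times. The rest of chromosome 16 took 4.62%, 3.68% and 2.49%, or 1.26 and 1.85 times. The part of the local difference in that of the region was not tested. Enzyme, sonication, treatment, sequencer, read length and depth differ between Ishikawa and the other lines and cannot be told apart from the cell line. For T-47D and LNCaP the paper states the same approximate sequencing depth a sample. Their loop read pairs (351260 and 1805322) and pooled samples (1 and 2) still differ. So do the spans and self pairs that the lists hold, and these cannot be told apart from the cell line either.

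**Figure D4:**
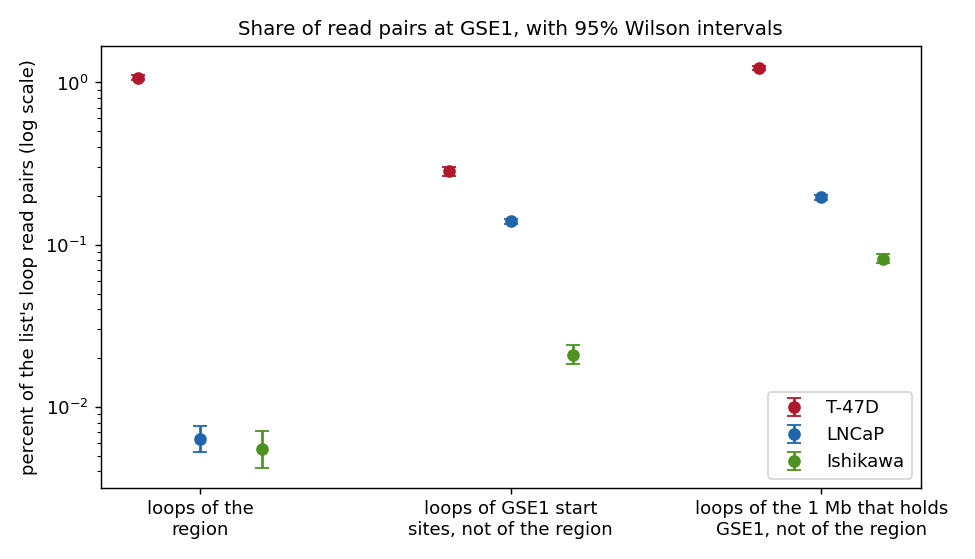
Percent of each list's loop read pairs (log axis) for loops of the region, loops of GSE1 start sites that do not touch the region, and loops within the 1 Mb that holds GSE1 that do not touch the region; points are the 3 lists and bars are 95% Wilson intervals for counting error. T-47D lies highest in all 3 sets, from 2.04 times LNCaP at the start sites to 170 times at the region.

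Of the 64 T-47D loops of the region, 8 were found in LNCaP, meaning that both anchors overlapped those of 1 LNCaP loop (12.5%, interval 6.47 to 22.8), against 38.9% of all T-47D loops. Loops of the same distance bins and read pair classes (split at 5, 10 and 28 read pairs) were found at 25.4%, or at 31.4% without the split at 28. The LNCaP list holds no span over 2 Mb, so 8 of the 64 loops could not be met there, and among the other 56 the share was 14.3% (7.42 to 25.7), against 39.4% of T-47D loops with spans of 5 kb to 2 Mb. Of the 34 with 10 or more read pairs, 8 were found (23.5%, 12.4 to 40.0), against 49.3%. The partner anchors themselves were met about as often as other anchors: 39 of 64 (60.9%) overlapped a LNCaP anchor, against 61.1% of all T-47D anchors. In Ishikawa 7 of 64 were found (10.9%, 5.40 to 20.9), against 9.93% of all and 7.07% of loops of the same bins and classes (6.27% without the split at 28), and of those with 10 or more read pairs 7 of 34 (20.6%, 10.3 to 36.8), against 18.5%. There 34 of 64 partner anchors (53.1%) overlapped an Ishikawa anchor, against 50.3%. The LNCaP shares of loops found lay below each of their backgrounds, and in Ishikawa the backgrounds lay within the intervals. These intervals count the 64 loops as separate draws, although all of them share the region as an anchor. Those found also rest on 1 LNCaP anchor and 2 Ishikawa anchors at the region, so no conclusion is drawn from the intervals. The loops found in LNCaP held 55.4% of the T-47D read pairs of the region and those found in Ishikawa 25.9%. Among the 10 strongest T-47D loops, 5 were found in LNCaP, with 23, 15, 8, 5 and 18 read pairs there, and 2 in Ishikawa, with 6 and 3. A single wide LNCaP anchor over the main start sites matched 2 T-47D partners, so the 8 loops correspond to 7 LNCaP loops.

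Loops at the GSE1 start sites were used differently by site. The T-47D anchor over the sites at 85645015, 85646763, 85646928 and 85646958 had 39 loops with 1506 read pairs, including the 513 with the region. The LNCaP anchor over these sites (chr16:85637759-85657595) had 29 loops with 1449 read pairs, and the Ishikawa anchor (chr16:85636327-85649326) had 21 with 111. The site at 85589573, the start of GSE1-215, had no T-47D anchor, whereas it had 33 loops with 1771 read pairs in LNCaP and 13 with 98 in Ishikawa. In LNCaP these 2 start-site anchors were joined to each other by 653 read pairs. The first start site of the gene, at 85203131, had an anchor in T-47D only, with 2 loops of 3 read pairs, 1 of them to the region. The T-47D anchor just outside the windows of the first sites (chr16:85206411-85209798) had 11 read pairs with the region. Further 3-prime, the site at 85688038 had 4 loops with 26 read pairs in LNCaP and 6 with 30 in Ishikawa, and the sites at 85698146 and 85698626 shared an Ishikawa anchor with 4 loops and 29. At the other 7 start sites no list held an anchor. Within GSE1 the anchor with the most read pairs was the region in T-47D, the one over 85589573 in LNCaP and the main start-site anchor in Ishikawa.

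**Figure D5:**
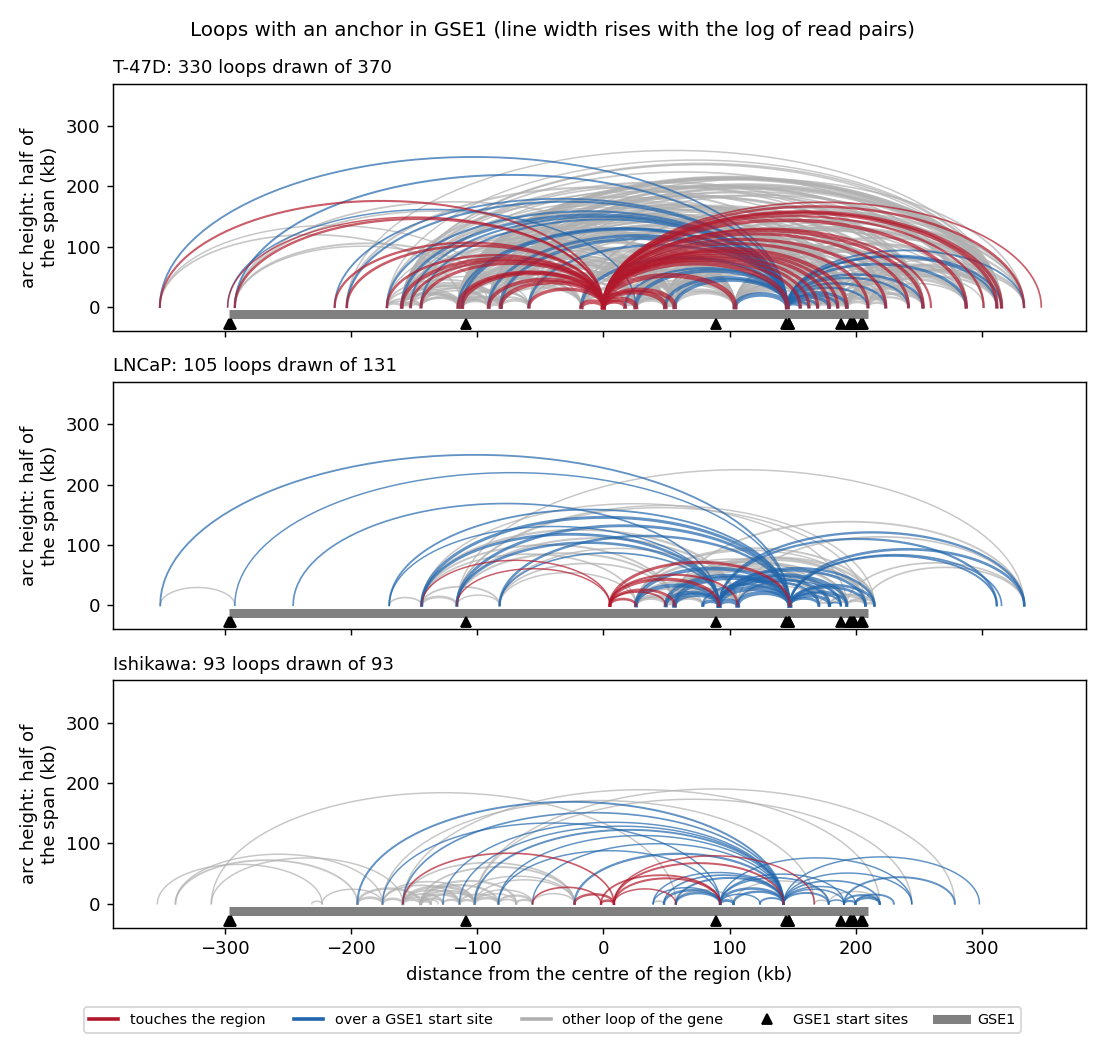
Arcs join the anchors of each loop that touches GSE1, at their distance from the centre of the region, with height equal to 0.5 of the span and width rising with the log of read pairs; red arcs touch the region, blue arcs touch a start site (black triangles) and grey arcs are other loops. Of 370, 131 and 93 loops those inside the drawn range are shown, and the red fan of T-47D is reduced to 8 and 9 arcs in the other lists.

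Counting distal anchors joined to any GSE1 start site (distal meaning free of protein-coding start sites), GSE1 had 34 in T-47D, 26 in LNCaP and 20 in Ishikawa, which ranked 3, 146 and 99 among 20149 genes. In T-47D the region was the first of these by read pairs (513), followed by an intronic anchor at 41.4 kb from the promoter (chr16:85602206-85606453, 287). Counting each distal anchor once, by its strongest loop to a start-site anchor, the first in LNCaP was chr16:85601568-85611281, which overlaps that second T-47D anchor and had 348 read pairs with the anchor over 85589573. The LNCaP anchor in the region was number 7 of 26 with 39. In Ishikawa the first was chr16:85599627-85606455 with 23, and the anchors in the region were numbers 5 and 12 of 20 with 7 and 5. Overlapping intronic anchors thus ranked first or second in all 3 lists. The 5 genes most like GSE1, by Euclidean distance over the log2 counts of linked distal anchors in the 3 lists, were TNK2 (14, 20 and 25 linked anchors), TBL1XR1 (37, 66 and 25), ENSG00000289747 (13, 19 and 23), IRF2BP2 (22, 19 and 8) and HES1 (26, 9 and 31), at distances of 1.31 to 1.60.

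Of 11 genes for co-repressor proteins related to GSE1, 7 had a loop at a start site in T-47D, 7 in LNCaP and 6 in Ishikawa. The shares of all genes with a loop were 49.2%, 58.1% and 57.3%. RCOR3 and RCOR1, which encode CoREST scaffolds, had 6 and 5 linked distal anchors in T-47D, 12 and 4 in LNCaP and 1 and 2 in Ishikawa. The deacetylase genes HDAC1 and HDAC2 had 1 and 0, 5 and 2, and 1 and 2, and KDM1A had 0, 0 and 1. The median over these 11 genes was 1, 2 and 1 linked distal anchors, and none of the 11 was joined to the region.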

How the data were processed

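Per the labels and the study's methods, the authors aligned reads to hg19 with HiC-Pro, called anchors and loops with hichipper, dropped weakly supported loops, and deposited 1 table of read pair counts per cell line, not scaled for depth. The LNCaP list has no self pairs and only spans of 5 kb to 2 Mb. The Ishikawa list has 4 blocks that no label ties to a sample, and they were summed. Loops, anchors and partners were counted in Python 3.11.15 with pandas 2.3.3, numpy 2.4.6 and scipy 1.17.1 (figures: matplotlib 3.10.9), from GENCODE v44lift37 start sites, after a check on simulated data. Distances are between anchor centres, and bin medians use 10 log-spaced bins from 5 kb to 2 Mb. Sequence came from GRCh37, tiled on chromosome 16, and from RefSeq. The members, gene lists and motifs were chosen with earlier results of these data known. Named are the 10 strongest T-47D loops and the 5 strongest of each other list, the nearest and farthest partners, every protein-coding gene joined to the region, the 5 most similar genes and the co-repressor list. Values per kb of anchor and the partners shared with the promoter were added after the data were seen. Alternatives were minima of 5 and 10 read pairs, a span window, thinning, a 50% overlap, a 2 kb promoter, 1 start site per gene and Ishikawa loops in 2 or more blocks.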

Additional observations from a re-analysis of the deposited data

How the results depend on the processing

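T-47D kept the most partners and the highest share of read pairs at the region under every alternative run on all lists. Because the region was chosen by its T-47D values, this order was favoured in advance. With 10 read pairs or more the partners were 34, 4 and 2 in T-47D, LNCaP and Ishikawa, the linked distal anchors 20, 15 and 3, the T-47D share 1.82%, and 23.5% of T-47D loops were found in LNCaP. With 5 or more the T-47D share was 1.30%, and Ishikawa had 5 partners and 12 linked anchors. Spans of 20 kb to 1 Mb gave shares of 1.37%, 0.00840% and 0.00760%. Thinning to the T-47D read pairs left 3 and 2 partners and 12 and 6 linked anchors in LNCaP and Ishikawa, an Ishikawa share of 0.00266%, and 4.69% and 0% of T-47D loops found. The thinned lists held 253941 and 225959 loop read pairs, below the 351260 of T-47D, so these values are not matched to its depth. Ishikawa loops in 2 or more blocks gave 4 partners and 10 linked anchors. With 1 start site per gene, the 5-prime-most, GSE1 had 2, 0 and 0 linked anchors, since the main start sites drop out. An overlap of 50% of both anchors gave 0% found in LNCaP and 0% in Ishikawa, because their anchors at the region are under 50% of its width. Limiting T-47D spans to the 5 kb to 2 Mb of the LNCaP list, added after the data were seen, gave 14.3% found in LNCaP. In all, 21 of 49 alternative values stayed within 1.5 times the main count or within the counting interval. No paired analysis was possible because each list pools its samples. LNCaP and Ishikawa are the lists with more loop read pairs, but their loops at the region rest on 114 and 57 read pairs.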
